A study of Mus musculus with 8 samples.

Results

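IGHV1-64 is a heavy-chain variable gene of the large mouse IGHV1 family, and the receptors described here are those whose heavy chain was built on it. They were taken from B-cell receptor sequencing of spleen germinal-centre B cells, as heavy chains named IGHV1-64 in barcodes that held exactly 1 heavy and 1 light chain (a paired cell). There were 1183 such cells among 40603 paired cells, 667 of 21896 in KO and 516 of 18707 in WT. The gene was chosen by its share of paired cells, which was high and differed little between the genotypes, so that share is given as a description with no test.

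The series set 4 libraries from Dtx1-/- mice (KO) against 4 libraries from Dtx1+/+ mice (WT), all taken on day 10 after immunization. Dtx1 encodes Deltex-1, a ubiquitin ligase linked to Notch signalling. Cells were isolated from spleen with a bead kit for peanut agglutinin, a lectin that binds germinal-centre B cells, and their receptor chains were amplified from droplet libraries. The sources used here do not state the immunogen, the strain, age and number of mice, or how the knockout was made. The tables list receptor chains, so neither the loss of Dtx1 nor the transcripts that define germinal-centre B cells could be checked in them.

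A B cell joins 1 IGHV, 1 D and 1 IGHJ segment into its heavy chain and pairs it with a kappa or lambda light chain, and the join between the segments is the third complementarity-determining region (CDR3). A clone is the progeny of 1 such cell. In the germinal centre, activation-induced deaminase mutates the V sequence and also drives class switching, in which the first constant gene, IGHM, is exchanged for a downstream one such as IGHG1 or IGHG2B.

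Libraries held 11666 to 14732 contigs and 4585 to 5712 paired cells, and 101 to 183 IGHV1-64 cells. In each of these counts every KO library lay above every WT library. At these numbers 3 cells make 1.64 to 2.97% of a library's IGHV1-64 cells, and such limits, like the intervals below, cover counting error only. Of 1460 heavy chains named IGHV1-64, 97 were left out because their barcode held more than 1 heavy chain, 56 because it held no light chain and 124 because it held more than 1. Pairs of libraries shared 28 to 54 barcodes among all paired cells, and 1 among IGHV1-64 cells summed over the 28 pairs of libraries. IGHV1-64 clones recurred among libraries of 1 genotype: 87 of 338 KO clones and 58 of 293 WT clones were seen in at least 2 libraries, against 4 of 627 clones seen in both genotypes. The libraries of a genotype thus shared clones in the way portions of 1 pool of cells do. Every standard deviation and p-value between KO and WT below describes the spread between portions of a pool, not between mice. The same holds for the tests of IGHV1-64 cells against other cells, which use the same libraries. How many mice a pool holds is not known here.

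The germline of IGHV1-64 is shown because mutations below are counted against it. It lies on chromosome 12, at chr12:115507587-115507977 in the mouse build GRCm38.p6 (mm10), where RefSeq lists a variable gene segment. It was read from the deposited contigs as the sequence from framework 1 to framework 3 carried by most clones, 341 of 627, while the next sequence was carried by 3. It is 285 bases long, on the coding strand from 5′ to 3′, with CDR1 and CDR2 in capitals.
IGHV1-64: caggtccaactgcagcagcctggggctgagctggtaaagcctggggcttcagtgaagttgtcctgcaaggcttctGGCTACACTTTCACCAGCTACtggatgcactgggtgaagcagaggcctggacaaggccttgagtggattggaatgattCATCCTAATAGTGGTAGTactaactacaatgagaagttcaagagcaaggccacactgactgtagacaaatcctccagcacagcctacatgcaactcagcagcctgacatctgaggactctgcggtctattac
The nearest other germlines derived in the same way were IGHV1-72 (12 bases different), IGHV1-53 (14) and IGHV1-55 (15). Of 1180 IGHV1-64 cells with a sequence of this length, 1 was as near or nearer to another germline, a WT cell with 28 differences. The next most mutated cell had 15.

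IGHV1-64 made up 2.85, 2.96, 3.27 and 3.11% of paired cells in KO replicates 1 to 4, against 2.79, 3.26, 2.19 and 2.79% in WT replicates 1 to 4. The means were 3.05 ± 0.183% in KO and 2.76 ± 0.442% in WT (SD, n = 4 each), and the groups overlapped. The highest library, KO replicate 3, had a 95% exact binomial interval of 2.82 to 3.77%, and the lowest, WT replicate 3, one of 1.78 to 2.65%. By mean share it was the 10th of 92 IGHV genes seen in KO, between IGHV8-12 (3.08 ± 0.121%) and IGHV2-2 (2.42 ± 0.128%). In WT it was the 12th of 95, between IGHV1-71 (2.77 ± 0.124%) and IGHV1-42 (2.34 ± 0.199%). IGHV1-64 could not be told from IGHV8-12 in KO or from IGHV1-71 in WT beyond the spread between libraries, and in WT its range reached that of IGHV1-42. Over the 8 libraries the genes whose shares moved most like that of IGHV1-64, among 50 with at least 200 paired cells, were IGHV10-1 (Pearson r = 0.823), IGHV1-15 (0.716) and IGHV2-9-1 (0.713). These are descriptions over points that share the libraries' totals.

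As in other paired cells, KO cells of IGHV1-64 carried fewer mutations than WT cells in the heavy and light V genes. More of them were also unmutated. The mutation frequency, the percent of the germline's nucleotides that differed, was 0.449, 0.340, 0.378 and 0.351% in the KO libraries, against 0.816, 0.856, 0.688 and 0.798% in the WT libraries. No KO library reached the lowest WT library, and the frequency fell by 0.41 percentage points (exact two-sided permutation test over 70 assignments of libraries, p = 0.0286, adjusted p = 0.0444 over 14 values). The smallest p that this test can give is 0.0286, and its adjusted value here depends on 9 of the 14 values reaching it. When any 1 WT library was left out, none of these 9 values kept an adjusted p under the threshold of 0.05 (0.0571 to 0.133), without a change of direction; all kept it when any 1 KO library was left out. In the other alternatives these calls were lost in 36 of 38 cases, 28 of them with an unadjusted p under the threshold, and none changed direction.

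Cells with no heavy V mutation were 66.9, 71.0, 65.9 and 67.5% of IGHV1-64 cells in the KO libraries, against 47.4, 38.8, 48.0 and 46.9% in the WT libraries. The KO share was higher by 22.6 percentage points (exact permutation test, p = 0.0286, adjusted p = 0.0444). The light V gene followed, with a mutation frequency of 0.158 ± 0.0243% in KO and 0.317 ± 0.0389% in WT (SD, n = 4 each; exact permutation test, p = 0.0286, adjusted p = 0.0444). Cells with more than 5 heavy V mutations numbered 28 of 665 in KO (4.21%) and 63 of 515 in WT (12.2%). Among mutated cells the mean was 3.36 ± 0.353 mutations in KO and 4.12 ± 0.293 in WT.

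Fewer IGHV1-64 cells were switched in KO than in WT. Switched cells were 7.05, 5.36, 8.79 and 7.64% of IGHV1-64 cells with a named constant gene in the KO libraries, against 12.8, 11.3, 12.9 and 13.3% in the WT libraries. All KO libraries lay below all WT libraries, and the share fell by 5.34 percentage points (exact permutation test, p = 0.0286, adjusted p = 0.0444). With at least 5 heavy-chain UMIs per cell, the difference was -4.67 points and lost the call (exact permutation test, p = 0.0571, adjusted p = 0.1). UMIs, unique molecular identifiers, count captured molecules. The switched share of other paired cells was 6.66 ± 0.423% in KO and 7.30 ± 0.508% in WT, with overlap. Of the nearest genes, IGHV1-55 went the other way, at 9.40 ± 2.49% in KO and 3.32 ± 0.354% in WT. IGHV1-72 (4.93% in KO, 7.21% in WT) and IGHV1-53 (4.15% in KO, 6.27% in WT) had lower means in KO. These shares were not tested.

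The switched KO cells were nearly all IGHG1. IGHG1 held 11, 7, 15 and 11 cells in the KO libraries, against 6, 7, 6 and 7 in the WT libraries, or 6.62 ± 1.73% and 5.14 ± 0.683% of cells with a named class. The difference of 1.48 points did not pass (exact permutation test, p = 0.2, adjusted p = 0.255). Without KO replicate 2, whose share was 4.17%, the difference was 2.29 points and passed (exact permutation test, p = 0.0286, adjusted p = 0.04). Of 48 switched KO cells 91.7% were IGHG1, against 40.6% of 64 switched WT cells. Other paired cells were alike in this, with 78.5% of 1410 switched KO cells and 45.4% of 1323 switched WT cells of IGHG1; these shares were not tested.

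The other classes were rare in KO. IGHG2B held 2 of 663 KO cells and 21 of 513 WT cells, IGHG3 held 1 KO cell and 11 WT cells, and IGHG2C held 1 KO cell and 6 WT cells. In other paired cells, too, IGHG2B was less frequent in KO (0.855%) than in WT (2.23%). Among IGHV1-64 cells it was found in 0, 1, 0 and 1 cells of the KO libraries, against 5, 7, 4 and 5 cells of the WT libraries. IGHA and IGHE were listed in no IGHV1-64 cell of either genotype, which allows a share of up to 0.452% in KO and 0.585% in WT. IGHM held 615 KO cells and 445 WT cells. IGHD, which naive B cells express together with IGHM, held 0 KO cells and 4 WT cells, all 4 unmutated. Other paired cells also had less IGHG3 (0.482% in KO, 1.44% in WT), IGHG2C (0.0898% in KO, 0.259% in WT) and IGHD (0.128% in KO, 0.650% in WT) in KO. These single classes other than IGHG1 were not tested.

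Switched IGHV1-64 cells were more mutated than IgM cells in both genotypes as measured over cells. The mutation frequency was 0.892% in switched and 0.338% in IgM cells of KO, and 1.49% in switched and 0.704% in IgM cells of WT. Of switched cells 18.8% were unmutated in KO and 3.13% in WT. Within IgM cells alone the KO mutation frequency stood at 0.380, 0.313, 0.351 and 0.310%, against 0.653, 0.826, 0.632 and 0.666% in WT, without overlap; this difference of -0.36 points did not pass once adjusted (exact permutation test, p = 0.0286, adjusted p = 0.0667). That adjustment still counted the switched and IGHG1 shares, which are fixed in IgM cells and could not differ. Unmutated IgM cells made up 66.0 ± 2.72% of IGHV1-64 cells in KO and 43.9 ± 4.02% in WT. Median heavy-chain UMIs per IGHV1-64 cell were 37.3 ± 4.57 in KO and 20.9 ± 1.31 in WT, close to 39.8 ± 1.5 and 23.0 ± 1.41 in other paired cells. With at least 5 heavy-chain UMIs the difference in mutation frequency was -0.39 points, and did not pass once adjusted (exact permutation test, p = 0.0286, adjusted p = 0.0571). The part of UMI depth in these differences was otherwise not tested.

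**Figure D1:**
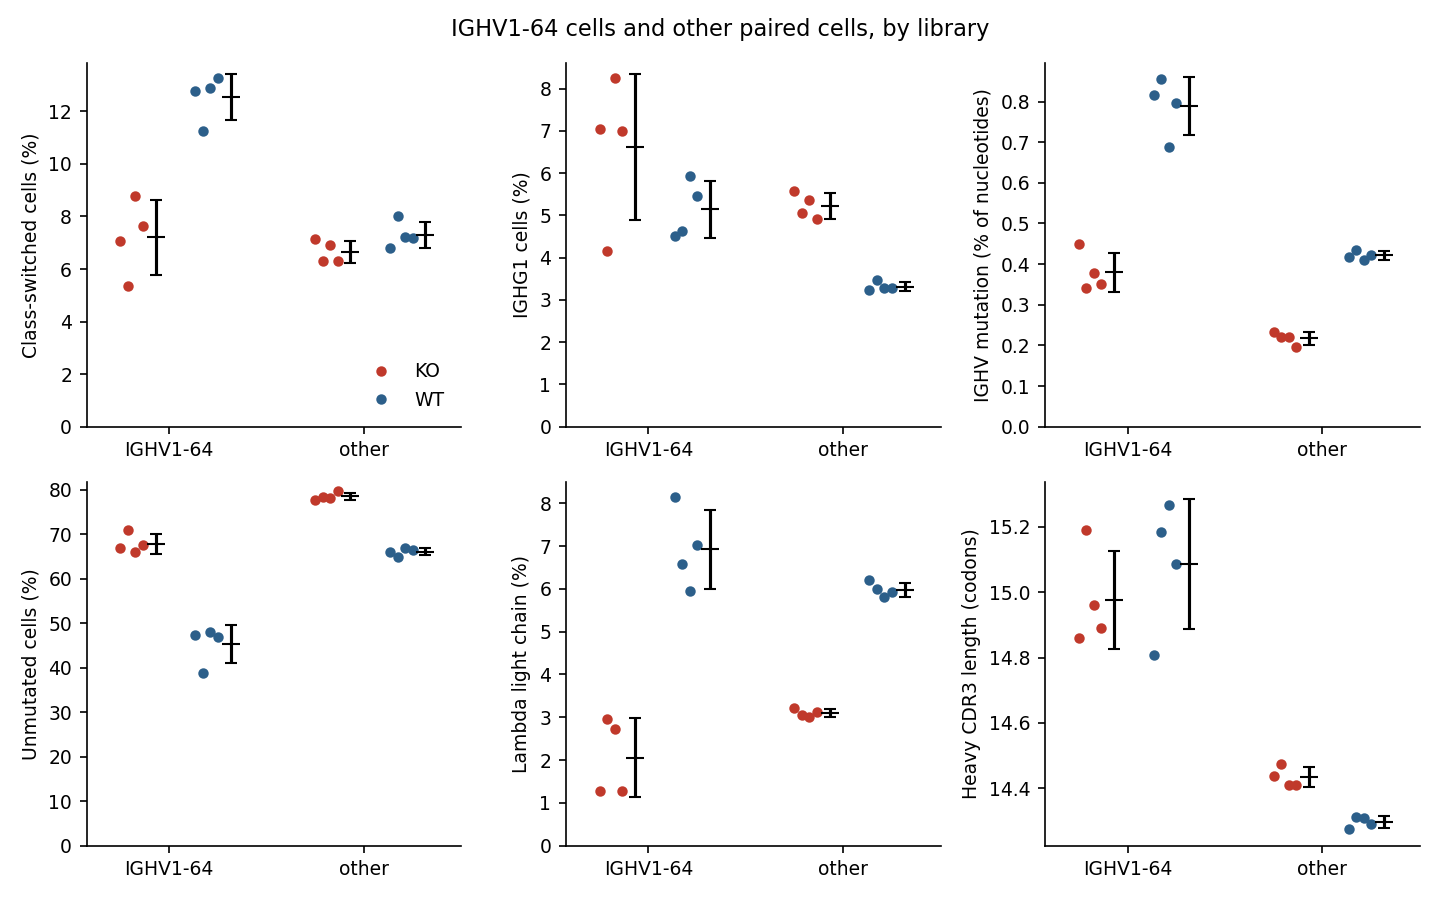
Each point is 1 library, for IGHV1-64 cells and for other paired cells, with KO in red left of WT in blue; black marks are the mean and SD of 4 libraries, and the CDR3 axis does not start at 0. The switched, mutated and unmutated shares of IGHV1-64 cells do not overlap between KO and WT, while those of IGHG1 and CDR3 length do.

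IGHV1-64 cells were then set against the other paired cells of the same library. In all 8 libraries they were more mutated, by 0.265 percentage points on average (SD of the differences 0.121; exact sign-flip permutation test over 256 sign patterns, p = 0.0078, adjusted p = 0.0215 over 11 values). The smallest p of that test is 0.0078. Libraries of a genotype shared clones like portions of 1 pool, so the 8 differences are not 8 independent ones. The unmutated share was lower than in other cells in 8 of 8 libraries, by 7.41 to 26.1 points (exact sign-flip test, p = 0.0078, adjusted p = 0.0215). The light V mutation frequency was higher in 8 of 8 libraries, by 0.083 points on average (exact sign-flip test, p = 0.0078, adjusted p = 0.0215). The IGHG1 share was higher in 7 of 8 libraries, by 1.61 points (exact sign-flip test, p = 0.0156, adjusted p = 0.0344). It lost the call against other IGHV1 cells alone, where the difference was 1.24 points (exact sign-flip test, p = 0.0391, adjusted p = 0.0614), and when any of 7 libraries, each but KO replicate 2, was left out (1.43 to 1.67 points).

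The switched share was higher than in other cells in 6 of 8 libraries, by 2.90 points, and did not pass (exact sign-flip test, p = 0.0313, adjusted p = 0.0573). Nor did the shares of lambda, IGHJ1, IGHJ2, IGHJ3 and IGHJ4 (exact sign-flip test, adjusted p from 0.0737 to 0.875).

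The difference between IGHV1-64 and other cells was itself compared between KO and WT. For mutation frequency it was 0.162 ± 0.04 points in KO and 0.368 ± 0.0636 points in WT (SD, n = 4 each), a difference of -0.21 (exact permutation test, p = 0.0286, adjusted p = 0.0381 over 4 values). For the switched share it was 0.554 ± 1.29 points in KO and 5.25 ± 1.35 points in WT, a difference of -4.70 (exact permutation test, p = 0.0286, adjusted p = 0.0381). For the unmutated share it was -10.6 ± 2.23 points in KO and -20.8 ± 3.56 points in WT, a difference of 10.1 (exact permutation test, p = 0.0286, adjusted p = 0.0381). When any 1 KO library was left out, none of the 3 kept the call (exact permutation test, adjusted p = 0.0571 to 0.0762). With each clone counted once the differences were -0.17 for mutation, -4.01 for switching and 4.86 for the unmutated share, and none of the 3 passed (exact permutation test, adjusted p = 0.114, 0.114 and 0.229). All these differences are in percentage points, on levels of other cells that were themselves unlike in KO and WT. For mutation frequency that level was 0.218% in KO and 0.421% in WT. An excess relative to the level of other cells was not tested.

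Among 51 IGHV genes with at least 200 paired cells, IGHV1-64 was the 4th most mutated in KO (0.379% over cells, against a median gene of 0.219%). In WT it was the 2nd (0.799%, against a median of 0.400%). Its relatives were lower in both genotypes. IGHV1-72 stood at 0.204 ± 0.0321% in KO and 0.530 ± 0.136% in WT, and IGHV1-53 at 0.201 ± 0.0207% in KO and 0.531 ± 0.054% in WT. IGHV1-55 stood at 0.269 ± 0.0216% in KO and 0.373 ± 0.0219% in WT. Every IGHV1-64 library was above every library of these 3 genes of its own genotype, a description with no test.

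The most often mutated bases of IGHV1-64 were frequent in both genotypes. Positions count from base 1 of framework 1, and a protein change counts codons from the same point. Over 626 clones with a comparable sequence, 136 of 337 KO clones and 170 of 293 WT clones held a mutated cell, and 240 of 285 positions were mutated in at least 1 clone. The codon of serine 66 in framework 3 led, with base 197 mutated in 22.1% of mutated KO clones and 25.9% of mutated WT clones. Its main changes were G197A (S66N, 44 clones) and G197C (S66T, 30 clones). Serine 31 at the end of CDR1 followed, with base 92 mutated in 21.3% of mutated KO clones and 19.4% of mutated WT clones, mainly as G92A (S31N, 41 clones).

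Next came base 170 in CDR2, mutated in 14.7% of mutated KO clones and 16.5% of mutated WT clones, mainly as G170A (S57N, 29 clones). The adjoining framework 3 bases were C177G (N59K, 23 clones) and position 172, where A172T (T58S) and A172G (T58A) each had 13 clones. Bases 93, 83, 167, 30 and 198 made up the rest of the 10 most often mutated, in 26 to 35 clones each. The relatives carry the same codon 66, and base 197 was mutated in 23.9% of mutated IGHV1-64 clones, 20.3% of IGHV1-72 clones, 22.6% of IGHV1-53 clones and 17.1% of IGHV1-55 clones. It was not the highest of the 10 positions in IGHV1-72, where base 92 was mutated in 24.7%, or in IGHV1-55, where base 170 was mutated in 20.4%.

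Of these 10 positions 8 lie in a hotspot of the deaminase, here AAC, AGC, TAC or TGC with the mutated base the C, or GTT, GCT, GTA or GCA with the mutated base the G. Such motifs held 73.9% of the 418 mutations at C or G in KO and 74.6% of 613 in WT. They hold 46 of the 147 C and G bases of the germline, or 31.3%, within the 19.1 to 35% of 76 other IGHV germlines. Per nucleotide, CDR2 was mutated at 0.886% in KO and 2.21% in WT, CDR1 at 0.773% in KO and 1.34% in WT, and framework 2 at 0.216% in KO and 0.436% in WT. The ratio of CDR to framework mutation was 2.78 ± 0.73 in KO and 2.72 ± 0.202 in WT, and did not pass (exact permutation test, p = 0.943, adjusted p = 0.943). Replacement changes were 77.1 ± 1.71% of mutations in KO and 74.7 ± 3.51% in WT, which did not pass either (exact permutation test, p = 0.2, adjusted p = 0.255).

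**Figure D2:**
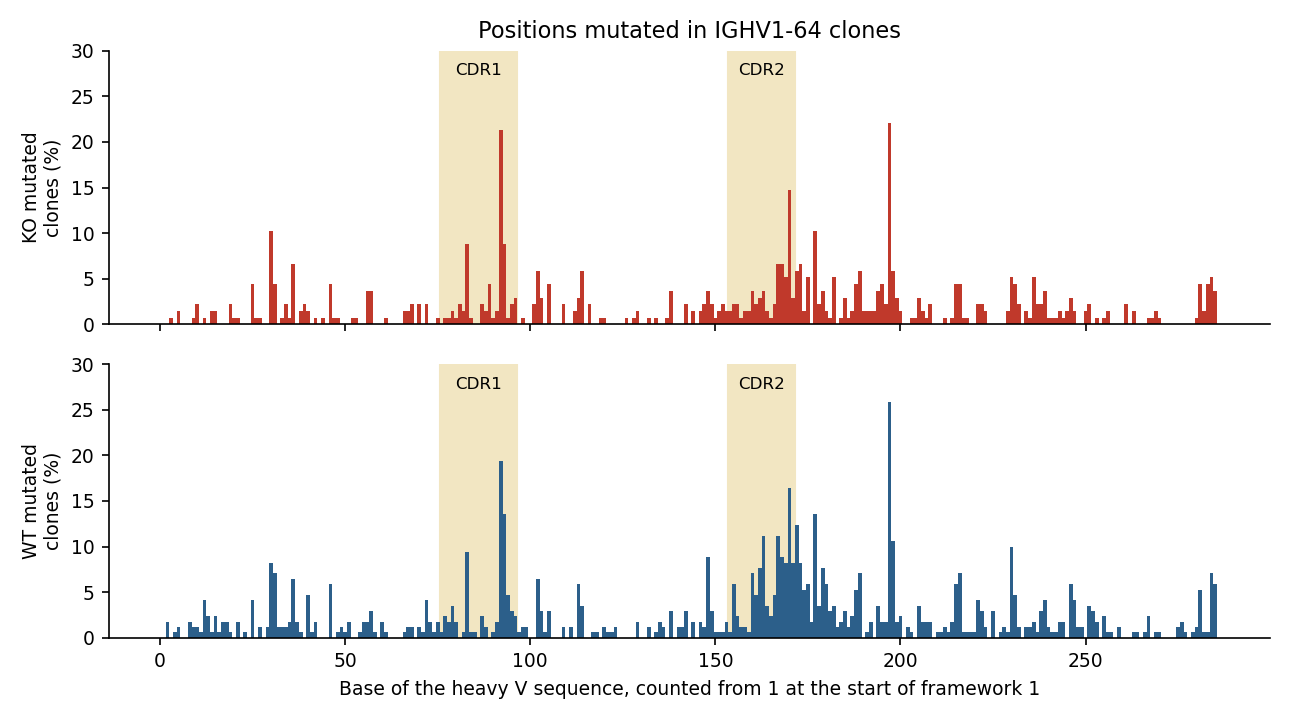
Bars give, for each of the 285 bases of the IGHV1-64 sequence, the percent of mutated clones that carry a mutation there, with KO (136 clones) above WT (170 clones); shaded spans are CDR1 and CDR2. The peaks at bases 92, 170 and 197 stand in both panels.

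IGHV1-64 cells were paired with 78 of the 97 light V genes, 70 in KO and 69 in WT, and the 10 most frequent held 453 cells (38.3%). IGKV1-110, a kappa gene on chromosome 6, was the leading partner. It held 5, 1, 10 and 6 cells in the KO libraries, against 10, 18, 15 and 19 in the WT libraries. As a share of paired cells this pair fell in KO, with a log2 fold change of -1.70 ± 0.35 (SE; edgeR quasi-likelihood test, adjusted p = 2.52e-05 over 458 pairs), and it kept the call in 15 of 15 alternatives. No KO library held more such cells than any WT library. IGKV1-110 was also less frequent in KO among other paired cells, with 3.28% in KO and 5.66% in WT.

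The IGKV1-110 receptors came from many clones, 16 among 22 KO cells and 28 among 62 WT cells, the largest of 13 WT cells. They were much mutated in both genotypes, with 28.6% unmutated in KO and 29.0% in WT, and a mutation frequency of 0.819% in KO and 1.05% in WT. Switched cells among them numbered 5 in KO and 16 in WT. Their heavy CDR3 was 13 to 18 codons long in each genotype, with a median of 16, and IGKJ1 was the light J gene of 19 KO cells and 39 WT cells. IGKV1-117 stood at 6, 4, 0 and 2 cells in KO, against 4, 11, 2 and 6 in WT, and did not pass (log2 fold change -1.13 ± 0.53, SE; edgeR, adjusted p = 0.057).

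Of 21 IGHV1-64 pairs with at least 20 cells over KO and WT together, 11 differed between the genotypes, 7 higher and 4 lower in KO. Pairs seen almost only in 1 genotype, such as IGKV4-74 and IGKV3-1, passed this filter through that genotype. The same test called 59.4% of all 458 pairs of all IGHV genes, 34.1% higher and 25.3% lower in KO, so the IGHV1-64 count lies near the background. The median log2 fold change of all 458 pairs was 0.33. With each clone counted once 3 of the 12 pairs tested were called, 2 of them among the 11, and with at least 50 cells 1 of 2 was called.

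In several called pairs 1 or 2 large clones held much of the cells. IGKV4-74 held 7, 13, 15 and 8 cells in the KO libraries, against 1, 0, 0 and 0 in the WT libraries (log2 fold change 4.67 ± 0.71, SE; edgeR, adjusted p = 3.88e-08). Clones of 19 and 18 cells held most of the 43 KO cells. IGKV6-25 held 27 KO cells, 25 of them in 1 clone, against 1 WT cell (edgeR, adjusted p = 2.33e-05). IGKV2-109 held 29 KO cells, 16 of them in 1 clone, against 2 WT cells (edgeR, adjusted p = 4.28e-05). IGKV3-1 ran the other way, with 1 KO cell against 25 WT cells in 5 clones (edgeR, adjusted p = 4.54e-06).

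The other calls were as follows. Higher in KO were IGKV6-15 (37 KO cells against 12 WT cells), IGKV6-23 (31 against 9), IGKV3-2 (25 against 5) and IGKV4-57 (19 against 2). With each clone counted once IGKV6-15 and IGKV6-23 lost the call (edgeR, adjusted p = 0.0942 and 0.0584), and IGKV1-110 and IGKV3-2 kept it. The other called pairs then fell under the filter of 20 and were not tested in that way. IGKV6-23 also lost the call without WT replicate 4 (log2 fold change 1.12, edgeR, adjusted p = 0.0521). Lower in KO were IGKV6-17 (7 KO cells against 24 WT cells) and IGKV19-93 (3 against 17). Of the remaining frequent partners, IGKV12-44 (22 KO cells against 30 WT cells), IGKV16-104 (29 against 12), IGKV8-30 (22 against 17), IGKV14-111 (21 against 16) and IGLV1 (12 against 20) did not pass (edgeR, adjusted p from 0.0607 to 0.808). Among the 10 most frequent partners the WT mutation frequency was above that of KO for 9, all but IGLV1 (0.585% in KO and 0.439% in WT). The WT value rested on 1 cell for IGKV4-74 and on 9 cells for IGKV6-23. Other paired cells had the same direction, with library means of 0.218% in KO and 0.421% in WT.

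**Figure D3:**
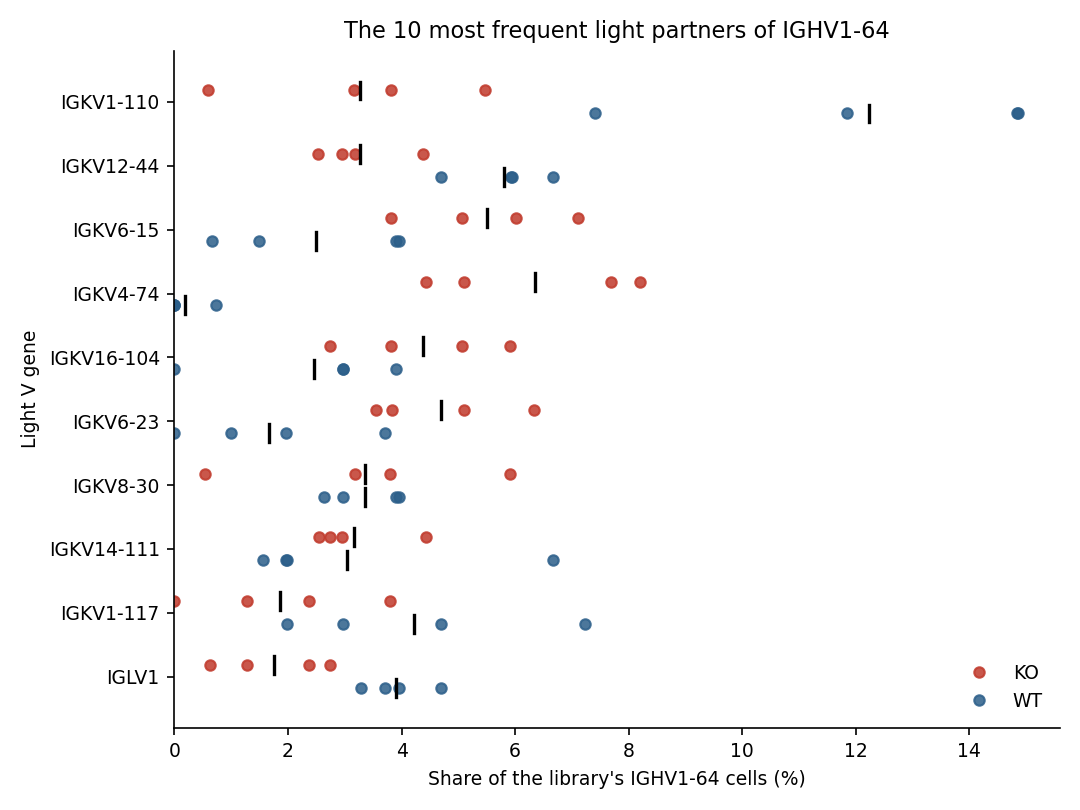
Each point is 1 library's share of IGHV1-64 cells with the light V gene on the left, KO in red above WT in blue, and black marks are means. IGKV1-110 lies to the right in WT, and IGKV4-74 lies at or near 0 in WT.

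Lambda chains were taken by 2.06 ± 0.914% of IGHV1-64 cells in KO and 6.92 ± 0.93% in WT. The libraries stood at 1.27, 2.96, 2.73 and 1.27% in KO, against 8.15, 6.58, 5.94 and 7.03% in WT, without overlap (exact permutation test, p = 0.0286, adjusted p = 0.0444). Other paired cells were also lower in KO, with 3.1 ± 0.09% in KO and 5.98 ± 0.163% in WT. Of the lambda cells 12 KO and 20 WT cells used IGLV1, and a clone of 14 WT cells used IGLV3.

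Light V use of IGHV1-64 cells was also set against that of the other paired cells, in 1 fit with the library as a block. Of 82 light V genes 14 differed (17.1%), 8 higher (9.76%) and 6 lower (7.32%) with IGHV1-64. With TMM factors, which shift the median log2 difference of all genes from -0.24 to -0.61, 16 genes were called and 4 of them were higher. Relative to that shift the direction of a small difference is not settled.

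The calls that held in all 15 alternatives were IGKV2-137, IGKV13-84 and IGKV3-1. IGKV2-137 held 1.44% of IGHV1-64 cells and 6.15% of other cells (log2 difference -2.10 ± 0.4, SE; edgeR, adjusted p = 2.64e-05). IGKV13-84 held 0.169% of IGHV1-64 cells, 2 cells, and 1.85% of other cells (edgeR, adjusted p = 0.00021). IGKV3-1 held 2.20% of IGHV1-64 cells and 0.277% of other cells (edgeR, adjusted p = 0.000411). Its excess was in WT alone, at 4.84% against 0.297% of other cells, with 13 of the 25 WT cells in 1 clone. In KO it stood at 0.150% against 0.259%. IGKV1-88 was found in 0 IGHV1-64 cells, which allows up to 0.254%, and in 0.627% of other cells (edgeR, adjusted p = 0.0183). It lost the call against other IGHV1 cells alone (edgeR, adjusted p = 0.113) and without KO replicate 3 (edgeR, adjusted p = 0.0501).

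Also higher with IGHV1-64 were IGKV4-74 (3.72% against 0.652% of other cells), IGKV4-90 (1.44% against 0.152%), IGKV14-126 (2.20% against 0.464%), IGKV16-104 (3.47% against 1.53%), IGKV3-2 (2.54% against 0.997%), IGKV4-58 (0.592% against 0.0685%) and IGKV12-44 (4.4% against 2.46%). For IGKV4-74, IGKV4-90, IGKV3-2 and IGKV4-58 the excess was in KO alone. In WT they held 0.194, 0.194, 0.969 and 0% of IGHV1-64 cells, against 0.462, 0.242, 1.31 and 0.0605% of other cells. The excess of IGKV12-44 lay in WT, at 5.81% against 1.74% of other cells, with 3.30% against 3.09% in KO. Of its 30 WT cells 18 were in 1 group, described below. Also lower were IGKV12-38 (0.0845% against 0.893%), IGKV4-68 (0.254% against 1.20%) and IGKV1-117 (2.96% against 5.46%). IGKV4-74 lost the call with DESeq2 alone (adjusted p = 0.0506), and IGKV4-90, IGKV14-126 and IGKV12-38 lost it with each clone counted once alone. IGKV16-104, IGKV3-2, IGKV4-58, IGKV12-44, IGKV4-68 and IGKV1-117 each lost it without KO replicate 3 and under at least 1 other alternative (edgeR, adjusted p up to 0.399). With each clone counted once 9 genes were called, 7 of them among the 14, and without KO replicate 3 there were 7. Over 97 light V genes the partner shares most like those of IGHV1-64 were those of IGHV6-3 (Pearson r = 0.602), IGHV1-85 (0.583) and IGHV5-6 (0.574), a description across genes.

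IGHJ use differed between KO and WT when cells were counted. IGHJ2 was taken by 31.0, 32, 38.8 and 32.5% of IGHV1-64 cells in KO, against 26.7, 18.4, 19.8 and 26.6% in WT. IGHJ1 averaged 19.9 ± 3.69% in KO and 13.1 ± 3.05% in WT, IGHJ3 averaged 19.2 ± 2.93% in KO and 28.9 ± 2.8% in WT, and IGHJ4 averaged 27.4 ± 3.5% in KO and 35.1 ± 2.48% in WT. For each of the 4 genes the KO and WT libraries did not overlap (exact permutation test, p = 0.0286, adjusted p = 0.0444 each).

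In other paired cells IGHJ1 and IGHJ3 lay apart in the same directions without overlap, IGHJ1 at 18.4 ± 0.451% in KO and 16 ± 0.313% in WT and IGHJ3 at 24.6 ± 0.911% in KO and 28.4 ± 0.358% in WT. IGHJ2 there was 30.1 ± 0.289% in KO and 30.5 ± 0.651% in WT, with overlap, and IGHJ4 was 26.9 ± 1.1% in KO and 25.1 ± 0.422% in WT, the opposite direction.

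The J differences of IGHV1-64 were smaller, and none passed, with each clone counted once per library. IGHJ1 was then 16 ± 1.39% in KO and 14.6 ± 2.32% in WT, and the difference of 1.33 points did not pass (exact permutation test, p = 0.371, adjusted p = 0.371). IGHJ2 then differed by 6.67 points (exact permutation test, p = 0.0571, adjusted p = 0.105), IGHJ3 by -5.20 and IGHJ4 by -2.80 points (exact permutation test, p = 0.114, adjusted p = 0.157 each).

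**Figure D4:**
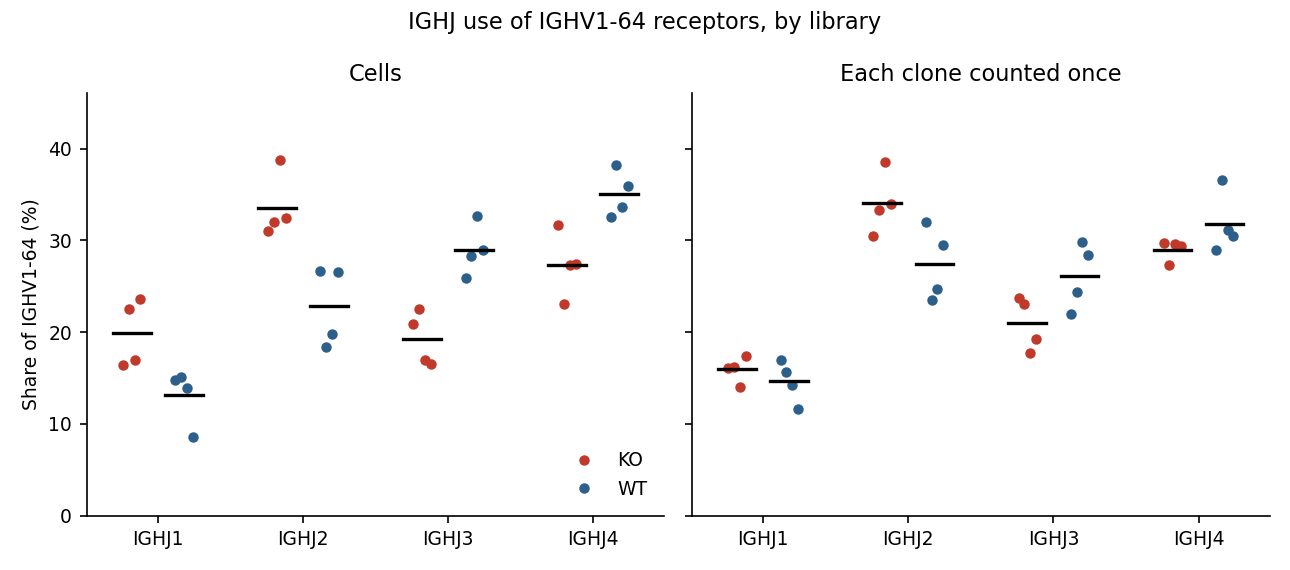
Each point is 1 library's share of IGHV1-64 taken by an IGHJ gene, over cells on the left and with each clone counted once on the right; KO is red, WT blue, and black marks are means. The KO and WT points separate on the left and overlap for IGHJ1, IGHJ2, IGHJ3 and IGHJ4 on the right.

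D genes were named for a minority of chains, and 464 KO and 380 WT cells had no D call. The most frequent calls were IGHD1-1 (68 KO cells, 60 WT cells), IGHD2-3 (36 and 19), IGHD2-4 (38 and 5), IGHD2-6 (10 and 29) and, tied at 25 cells each, IGHD3-2 (20 and 5) and IGHD2-8 (13 and 12). The 12-base run TTACTACGGTAG was found in more of the distinct CDR3 sequences called IGHD1-1 than any other run of that length. It stood in 98.5% of KO and 88.3% of WT cells called IGHD1-1, in 9.48% of KO and 10.8% of WT cells with no D call, and in 16.6% of KO and 18.2% of WT IGHV1-64 cells in all. Other paired cells held it in 15.1% (KO) and 14.7% (WT).

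Heavy CDR3s of IGHV1-64 cells were longer than those of other cells of the same library in 8 of 8 libraries, by 0.67 codons on average (exact sign-flip test, p = 0.0078, adjusted p = 0.0215). They averaged 15 ± 0.148 codons in KO and 15.1 ± 0.2 in WT, which did not differ beyond the spread (exact permutation test, p = 0.429, adjusted p = 0.5). Lengths ran from 6 to 22 codons in KO and from 7 to 23 in WT. The median was 15 in both, and 14 in other cells of both.

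The clones numbered 338 in KO, 231 of 1 cell, and 293 in WT, 225 of 1 cell. At 101 cells per library, the share of cells in clones of at least 2 cells of that library was 34.4 ± 3.6% in KO and 35 ± 3.07% in WT, which did not pass (exact permutation test, p = 0.886, adjusted p = 0.943). In KO 13.9% of cells belonged to the 5 largest clones, against 14.5% in WT. Clones of at least 3 cells were more often free of mutation in KO: 41 of 61 had no mutated cell, against 13 of 36 in WT. They held 35.5% of KO cells and 20.2% of WT cells, with no switched cell among them in either genotype. Clones of at least 3 cells with both IgM and switched members numbered 4 in KO and 9 in WT. Counts over clones of a pool have no replicates and were not tested.

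The heavy CDR3s of 9 of the largest clones are shown because such clones make up much of the cell counts of several light partners above. Each is the sequence most common in its clone, on chromosome 12, with the 12-base run given above in capitals where it occurs.
KO, 25 cells, IGHJ1 with IGKV6-25: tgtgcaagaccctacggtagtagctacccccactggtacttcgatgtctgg
KO, 19 cells, IGHJ2 with IGKV4-74: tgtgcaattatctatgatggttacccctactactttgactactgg
KO, 18 cells, IGHJ1 with IGKV4-74: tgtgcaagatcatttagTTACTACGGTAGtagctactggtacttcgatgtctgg
KO, 16 cells, IGHJ4 with IGKV2-109: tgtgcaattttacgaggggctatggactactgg
KO, 15 cells, IGHJ2 with IGKV4-90: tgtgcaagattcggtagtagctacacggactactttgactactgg
WT, 16 cells, IGHJ3 with IGKV6-17: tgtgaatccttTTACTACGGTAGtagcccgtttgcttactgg
WT, 14 cells, IGHJ3 with IGLV3: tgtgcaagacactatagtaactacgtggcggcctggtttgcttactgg
WT, 14 cells, IGHJ3 with IGKV14-126: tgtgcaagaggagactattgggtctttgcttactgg
WT, 13 cells, IGHJ4 with IGKV3-1: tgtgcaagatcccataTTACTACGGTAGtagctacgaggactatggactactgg

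Every one of these 9 clones was found in all 4 libraries of its genotype and in none of the other. The KO clone with IGKV6-25 had 1, 8, 5 and 11 cells in KO replicates 1 to 4, all unmutated and of 1 CDR3 sequence. The KO clones of 19 and 15 cells and the WT clones of 16, 14 and 14 cells were likewise unmutated, with 1 CDR3 sequence each. The KO clone of 18 cells was mutated in every cell, with 3.89 mutations on average, 8 distinct CDR3 sequences and 2 switched cells. The KO clone of 16 cells averaged 2.19 mutations with 6 unmutated cells, and the WT clone of 13 cells averaged 3.15 with 1 unmutated cell.

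**Figure D5:**
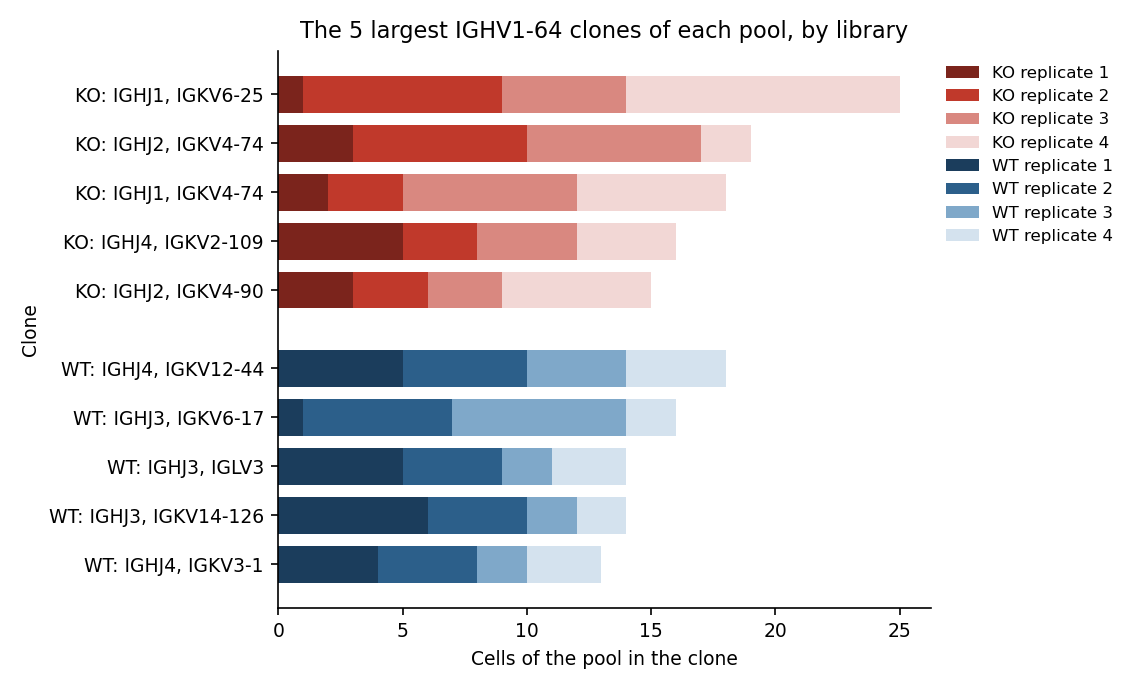
Bars give the cells of the 5 largest IGHV1-64 clones of each pool, KO above WT, labelled by IGHJ and light V gene and split by library from replicate 1 (darkest) to 4 (lightest). Every clone has cells in each of the 4 libraries of its pool; the IGKV12-44 bar counts its 18 WT cells.

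Of the 4 clones that the clone rule joined across the genotypes, 3 had 2 to 4 cells. The fourth was the largest group of WT and had 25 cells, all with IGHJ4, IGKV12-44, IGKJ4 and a heavy CDR3 of 13 codons. It had 2, 3, 1 and 1 cells in the KO libraries, against 5, 5, 4 and 4 in the WT libraries, so it was present in all 8. No heavy CDR3 nucleotide sequence of IGHV1-64 cells was found in both genotypes, among 728 distinct sequences. The group held 19 distinct CDR3 sequences, 4 in KO and 15 in WT, which differed from each other by 1 to 10 bases, with 11 distinct translations. The commonest translation was carried by 2 KO cells and 7 WT cells and was spelled by 7 different nucleotide sequences.

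Some of these sequences are shown because they spell near-identical loops with different bases at the joins. Capitals mark bases that differ from the first sequence, the most frequent of the group.
KO, 4 cells: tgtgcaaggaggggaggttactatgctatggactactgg
KO, 1 cell: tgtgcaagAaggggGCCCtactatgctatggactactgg
KO, 1 cell: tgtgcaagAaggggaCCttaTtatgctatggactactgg
WT, 3 cells: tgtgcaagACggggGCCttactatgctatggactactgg
WT, 2 cells: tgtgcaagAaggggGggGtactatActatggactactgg
WT, 1 cell: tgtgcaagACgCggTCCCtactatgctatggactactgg
WT, 1 cell: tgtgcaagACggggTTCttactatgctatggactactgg
WT, 1 cell: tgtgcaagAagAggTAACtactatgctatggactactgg
WT, 1 cell: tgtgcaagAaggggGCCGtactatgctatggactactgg
The light CDR3 was the same in 21 of the 25 cells, on chromosome 6, and is given because it is the constant part of the group.
IGKV12-44 light CDR3: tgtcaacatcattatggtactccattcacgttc

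Mutations in the heavy V sequence averaged 0.857 in the KO cells and 1.72 in the WT cells of this group, with at most 4, and 4 of 7 KO cells and 4 of 18 WT cells were unmutated. Switched cells numbered 0 of 7 in KO and 4 of 18 in WT. Heavy CDR3s within 2 residues of the most frequent sequence's translation, with IGHJ4 and the same length, made up 48.1% of the 52 IGHV1-64 cells with IGKV12-44. They made up 1.33% of IGHV1-64 cells with other light genes, 15 cells in 11 clones and 8 light V genes, of which IGKV16-104 had the most (4 KO cells and 1 WT cell). Among other IGHV genes they made up 0.515% of cells with IGKV12-44 and 0.510% of cells with other light genes. The group was noticed in the data, so these shares are descriptions. Without the group the IGHJ4 difference between KO and WT was -6.14 points and lost the call (exact permutation test, p = 0.0571, adjusted p = 0.0889). The other 8 called differences between KO and WT then stood at an adjusted p of 0.05, no longer under the threshold (exact permutation test, p = 0.0286 each).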

How the data were processed

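The files list B-cell receptor contigs of 8 droplet libraries, 4 KO and 4 WT, with a read count and a UMI count per contig as whole numbers, deposited by the authors without normalization, per the file headers. The submitters' processing notes name Cell Ranger, R 4.3.1 and the build mm10. All 104649 contigs were marked as cell-associated, high confidence, full length and productive. The 236 gene names all matched symbols of a RefSeq table (GRCm38.p6), from which coordinates come.

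Paired cells had 1 heavy and 1 light contig. Barcodes with several heavy chains, which could be doublets, were dropped without a doublet caller. Depth was 883091 to 1155339 UMIs in the KO libraries and 754954 to 765119 in the WT libraries, without overlap. Cell numbers limit the precision of shares. A germline was the most common framework 1 to framework 3 sequence over clones, for genes with at least 20 clones; a mutation shared by most clones would be missed. It was found for 77 of 97 IGHV genes. Clones shared IGHV, IGHJ, light V and J and heavy CDR3 length, joined at a CDR3 identity of at least 0.85.

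Values were tested over libraries by exact two-sided permutation (70 assignments) or by sign flips of within-library differences (256 patterns), with Benjamini-Hochberg adjustment over 14, 11 and 4 values and a threshold of 0.05 on the adjusted p. Numbers of cells per heavy-light pair and per light partner were used from 20 cells up, summed over all libraries. They went through edgeR's quasi-likelihood test (edgeR 4.0.16 in R 4.3.3) with the paired cells as library size, checked on simulated counts. DESeq2 1.42.0, TMM factors, other filters, each clone counted once, IgM cells only, other clone rules and leaving out each library were alternatives. Other software was Biopython 1.88, SciPy 1.17.1, NumPy 2.4.6, pandas 2.3.3 and matplotlib 3.10.9 under Python 3.11.15.

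The gene, the measures and the lists were chosen with earlier results of these data known. The call threshold was moved to the unadjusted p after calls on the adjusted p had been seen, and then moved back; the calls given here use the adjusted p, and the unadjusted p stands beside it. The naming rule took all heavy constant and J genes, the 5 most frequent D genes, the 10 most frequent light partners and up to 10 further called ones, the 5 largest clones of each pool, the 10 positions mutated in most clones, the 3 genes most alike and the neighbours in order of use. All called light genes are named, which is 5 more than this limit, and these were added after their values were seen. Markers of other cells were IGHD, unmutated IgM, very high heavy-chain UMIs and mutated switched chains.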

Additional observations from a re-analysis of the deposited data

Results flagged for a closer look

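The share of IGHV1-64 cells without a heavy V mutation was 38.8% in WT replicate 2, far below the 46.9 to 48% of the other 3 WT libraries. The share of mutations that replaced an amino acid was 74.5% in KO replicate 4, below the 77.6 to 78.1% of the other 3 KO libraries. In all 30 groups of 4 libraries were checked in this way, and chance sets about 1 in 20 groups apart. The excess of IGHV1-64 cells over other cells of the same library differed between KO and WT for the switched share (-4.70 points), the mutation frequency (-0.21 points) and the unmutated share (10.1 points), each by an exact permutation test with p = 0.0286 and adjusted p = 0.0381. Mutation frequency in other cells was 0.218% in KO and 0.421% in WT, and an excess relative to that level was not tested.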

How the results depend on the processing

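No called value reversed under any alternative run, but the exact tests sit at their smallest p, so many calls were lost. Of the 9 KO to WT calls, leaving out 1 library lost 36 of 72, 28 of them with an unadjusted p under the threshold, and the other alternatives lost 36 of 38, 28 of them so. Of the 5 calls of IGHV1-64 against other cells these lost 7 of 40 (all for IGHG1) and 3 of 24, and of the 3 differences between KO and WT in that excess, 12 of 24 and 8 of 13. The calls on heavy and light mutation, unmutated share and CDR3 length against other cells held in all alternatives. With fewer values at the smallest p, the adjusted p of the others also rises.

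With each clone counted once, KO minus WT without a call was -5.68 points for the switched share, -0.45 for mutation, 21.8 for the unmutated share, -0.14 for light mutation, -4.07 for lambda, 1.33 for IGHJ1, 6.67 for IGHJ2, -5.20 for IGHJ3 and -2.80 for IGHJ4. IGHV1-64 minus other cells was then 1.27 for IGHG1 (lost), -2.46 for IGHJ1 and 3.23 for IGHJ4 (both gained a call) and 0.37 for IGHJ2 (uncalled, sign turned). The differences in excess lost their calls at -4.01 for switching, -0.17 for mutation and 4.86 for the unmutated share.

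Over all cells with 1 heavy chain, KO minus WT without a call was -6.48 for switching, -0.43 for mutation, 25.0 for the unmutated share, 5.55 for IGHJ1, 11.6 for IGHJ2, -10.0 for IGHJ3 and -7.11 for IGHJ4. With at least 5 heavy-chain UMIs it was -4.67 for switching, -0.39 for mutation, 21.7 for the unmutated share, -0.16 for light mutation, -5.17 for lambda, 6.39 for IGHJ1, 10.5 for IGHJ2, -10.1 for IGHJ3 and -6.81 for IGHJ4. The IGHG1 excess was then 1.84 (lost), that of lambda 0.0933 (uncalled, sign turned), and the differences in excess were -4.22 for switching, -0.20 for mutation and 10.0 for the unmutated share (all lost). Against other IGHV1 cells the excess was 1.24 for IGHG1 (lost), 1.21 for lambda and 1.05 for IGHJ1 (uncalled, signs turned), and -5.58 for IGHJ3 and 8.36 for IGHJ4 (gained). In IgM cells KO minus WT was -0.36 for mutation and 20.6 for the unmutated share, and the differences in excess were -0.17 and 8.17 (all lost). The adjustment there still counted the switched share, and IGHG1 for KO minus WT, which are fixed in IgM cells. The unadjusted p stayed at 0.0286 for each (exact permutation test), so the losses of call cannot by themselves show a weaker difference. Each difference was smaller in size than over all classes, where KO minus WT was -0.41 for mutation and 22.6 for the unmutated share. The differences in excess there were -0.21 and 10.1. Whether they were smaller beyond the spread was not tested.

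The uncalled expanded-clone share turned to 1.71 at identity 0.95, to 5.90 with identical CDR3s and to 1.04 without the shared IGKV12-44 group. Without that group, an alternative chosen after seeing the data, KO minus WT lost all 9 calls, IGHJ4 at -6.14 and the others at an adjusted p of exactly 0.05, with -4.96 for switching, -0.42 for mutation, 21.8 for the unmutated share, -0.12 for light mutation, -5.10 for lambda, 6.49 for IGHJ1, 10.2 for IGHJ2 and -10.6 for IGHJ3, and the excess was 2.78 for switching (gained) and 0.0865 for lambda (uncalled, sign turned). Leaving out the cell nearer to another germline, also chosen then, lost no call. The cause of these changes was not tested.

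Leaving out 1 library gave KO minus WT of -5.86 to -4.72 for switching, 0.936 to 2.29 for IGHG1, -0.44 to -0.39 for mutation, 20.4 to 23.5 for the unmutated share, -0.18 to -0.15 for light mutation, -5.20 to -4.46 for lambda, 5.26 to 7.90 for IGHJ1, 8.95 to 12 for IGHJ2, -10.8 to -8.49 for IGHJ3 and -9.16 to -6.30 for IGHJ4. It gave -2.05 to 0.748 for expanded clones and -0.26 to 0.264 for the CDR to framework ratio, both uncalled. The excess over other cells was 1.43 to 1.96 for IGHG1, 2.44 to 3.45 for switching, -0.34 to 0.220 for lambda, -1.69 to 0.193 for IGHJ1 and 4.02 to 6.44 for IGHJ4. The differences in excess were -5.37 to -4.20 for switching, -0.24 to -0.19 for mutation and 8.37 to 10.9 for the unmutated share. Called light partners numbered 7 to 16, the lowest without KO replicate 3.

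The called pairs numbered 1 of 2 with at least 50 cells and 3 of 12 with each clone counted once, and the called light partners 9 with each clone counted once. Same-numbered KO and WT libraries did not deviate together in the shares of pairs (correlations of -0.07 to -0.01). Many pairs had few cells per library, and counting error could hide a shared deviation. This check therefore cannot show whether the numbers pair the libraries. With the replicate block 11 pairs were called, as without it. Cell numbers limit what can be seen: 3 cells are up to 2.97% of a library's IGHV1-64 cells.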

Other observations

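Light J use of IGHV1-64 cells, which entered no comparison, was led by IGKJ5 in KO (267 cells, 40.0%, of 106 clones) and by IGKJ2 in WT (152 cells, 29.5%, of 88 clones). IGKJ5 held 118 WT cells (22.9%, of 75 clones), and in other paired cells it held 26.6% in KO and 22.1% in WT. Heavy chains with UMIs at or above the 99th percentile of their library made up 0.296 ± 0.344% of IGHV1-64 cells in KO and 1.12 ± 1.28% in WT (SD, n = 4 each).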
